A study of Sus scrofa with 12 samples.

Results

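The FOXO and muscle atrophy genes described here are FBXO32, TRIM63, FOXO1, FOXO3, FOXO4, PIK3R1 and MAP3K5, 7 of the 28210 annotated genes considered in the pig genome (Sscrofa11.1). They were chosen by name, and every chromatin loop and every chromatin-associated RNA (caRNA) at their ends was then collected. The tissue was longissimus muscle of 2-week-old piglets of the lean, fast-growing Large White (LW) breed and the Chinese Meishan (MS) breed. Each breed gave 2 libraries of H3K27ac BL-HiChIP, which joins neighbouring DNA ends of the nucleus by ligation and enriches pairs carrying H3K27ac, a histone modification found at promoters and enhancers in use. Each breed also gave 2 libraries of GRID-seq, which links each RNA to the DNA it lies on. The sources used here do not say whether the 2 libraries of a breed came from separate piglets, so p-values measure only the spread between these libraries, which may be technical.

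Muscle mass is a balance of protein synthesis and breakdown. When insulin and IGF signalling is strong, PI3-kinase activates AKT, which phosphorylates FOXO transcription factors and keeps them out of the nucleus. When the signal weakens, FOXO factors enter the nucleus and switch on genes of protein breakdown, among them the muscle ubiquitin ligases FBXO32 (atrogin-1) and TRIM63 (MuRF1), which mark muscle proteins for the proteasome. FOXO1, FOXO3 and FOXO4 are the transcription factors. PIK3R1 encodes p85α, the regulatory subunit of PI3-kinase. MAP3K5 (ASK1) is a stress-activated kinase upstream of JNK and p38.

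The loop lists held 57028 and 43282 loops for LW replicates 1 and 2, and 45061 and 33353 for MS replicates 1 and 2, between pairs of 5-kb anchors. The GRID-seq lists held 571 and 681 RNAs with 8181721 and 9943666 RNA reads in LW, and 519 and 649 RNAs with 7172517 and 9381797 reads in MS. The smallest number of reads of a listed RNA was 432 to 455, so an RNA missing from a list is not shown to be absent from the tissue. Of 12 skeletal muscle fibre markers 8 were listed in every library, with summed levels of 129499.2 and 141737.7 CPM (RNA reads scaled to a total of 1000000 listed reads per library) in LW against 110332.7 and 121147.6 in MS, so the ranges of the breeds did not overlap. Of 6 fibroblast markers 2 to 3 were listed per library, at 922.7 to 1495 CPM in all. No satellite cell, adipocyte, endothelial, immune or smooth muscle marker was listed in any library. The part of these levels in the results was not tested, and in tissue libraries fewer cells of a type and less RNA per cell cannot be told apart.

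All 7 genes had loops in all 4 libraries, and by number of loops FOXO1, FOXO3 and PIK3R1 stood above the others. The strength of a loop is the −log10 of its FDR, and the loop score of a gene adds up the strengths of those loops whose anchor lay 1 kb or less from one of its ends. FOXO1, FOXO3 and PIK3R1 each had 13 to 28 loops per library, against a median of 2 loops per gene over all genes with a loop. FOXO1 lay at the 98.4th to 99.9th percentile of those genes, FOXO3 at the 99.6th to 99.9th, and PIK3R1 at the 99.5th to 99.8th. FBXO32, TRIM63 and MAP3K5 had 4 to 10 loops per library. FBXO32 lay at the 83.3th to 96.5th percentile, TRIM63 at the 65.6th to 93th and MAP3K5 at the 78.3th to 90.9th. FOXO4 had 2 or 3 loops, at the 34.7th to 59.4th percentile. By loop score this order did not hold in every library. In MS replicate 2 FBXO32 had a score of 146.7, above PIK3R1 at 122.5 and FOXO1 at 96.0. Over the 4 libraries the 7 genes had 210 distinct loops, of which 15 were called in all 4 libraries and 121 in 1 library only.

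**Figure D1:**
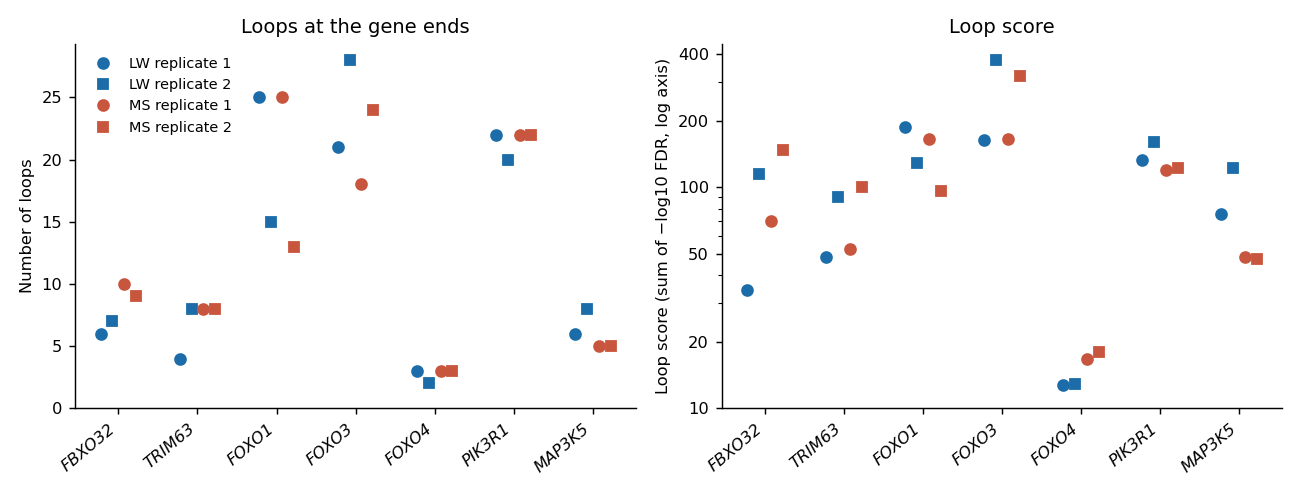
Number of loops (left, linear axis from 0) and loop score (right, sum of −log10 FDR, log axis) at the ends of each gene, 1 point per BL-HiChIP library, with LW in blue and MS in red. FOXO1, FOXO3 and PIK3R1 hold 13 to 28 loops per library, and the libraries of the breeds overlap in loop score for FBXO32, TRIM63, FOXO1 and FOXO3.

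The loop scores were compared between the breeds with limma on quantile-normalized log2(score + 1) values, and a gene was called at a log2 difference over 1.5 with an unadjusted p under 0.05. None of the 7 genes was called, while 5.33% of the 15431 genes tested were. After Benjamini-Hochberg adjustment limma called 0 genes of the 15431, against 822 genes with an unadjusted p under 0.05, and DESeq2 on the rounded scores also called 0. Log2 differences are given as LW minus MS with their standard error. The design with 2 libraries per breed limits an exact permutation test of a single gene to p = 0.333.

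The loop scores of 3 of the 7 genes did not overlap between the breeds, where 28.1% of all genes tested did not. MAP3K5 had loop scores of 75.5 and 122 in LW against 48.3 and 47.4 in MS, so that both LW libraries were above both MS libraries. Its log2 difference was 0.72 ± 0.76 (SE, n = 2 per breed, limma adjusted p = 0.992). PIK3R1 had 133.1 and 160.7 in LW against 119.3 and 122.5 in MS, also higher in LW, and after normalization the log2 difference was 0.09 ± 0.77 (limma adjusted p = 1). FOXO4 went the other way, with scores of 12.7 and 12.8 in LW against 16.7 and 17.9 in MS and a log2 difference of −0.73 ± 0.76 (limma adjusted p = 0.992). Non-overlap upwards in LW held for 21.1% of all genes and upwards in MS for 7.02%.

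The scores of the other 4 genes overlapped. FBXO32 had 34.2 and 115 in LW against 70.2 and 146.7 in MS, TRIM63 48.1 and 90.4 against 52.5 and 100.5, FOXO1 186.6 and 129.2 against 165.6 and 96.0, and FOXO3 164.3 and 375.2 against 165.4 and 316.8. For FBXO32, TRIM63 and FOXO3 the second library was higher than the first in both breeds, and for FOXO1 it was lower in both. Their log2 differences ran from −0.97 ± 0.88 for FBXO32 to 0.10 ± 0.89 for FOXO1, smaller than or close to their standard errors. The differences of FOXO1, FOXO3, PIK3R1 and TRIM63 changed sign under other settings, and no direction is drawn for them.

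FOXO1 (chr11:15317222-15410059) is transcribed toward lower coordinates, and its loops ran from the anchor at its start over the gene and far past its 3′ end. All 51 loops had their near anchor at the start of the gene. Between 73.5% and 84.6% of the summed strength per library lay on anchors downstream of the RNA, 12.9% to 24.1% within it and 0% to 5.26% upstream. The strongest loop spanned 355 kb and was called in all 4 libraries, at 26.8 and 46.3 in LW against 38.0 and 38.9 in MS. The libraries of the breeds overlapped for this loop. A loop of 155 kb was called at 8.19 and 7.45 in LW against 2.58 and 5.81 in MS, and a loop of 10 kb at 11.6 and 6.17 against 5.48 and 6.63. The farthest loop spanned 730 kb, and none of the 51 far anchors held the end of another protein-coding gene.

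FOXO3 (chr1:74626673-74760323) is transcribed toward higher coordinates and showed the same geometry in its own direction. Of its 50 loops 45 had their near anchor at the gene start only, and 36.9% to 55.2% of the strength per library fell within the RNA and 42.5% to 63.1% downstream of it. The strongest loop called in all 4 libraries joined the start to a site 100 kb into the gene, at 31.2 and 81.5 in LW against 27.1 and 68.1 in MS. Loops of 285 kb (11.5 and 28.0 in LW, 17.3 and 14.8 in MS) and 205 kb (8.92 and 16.5, against 3.87 and 11.9) were also called in every library. FOXO3 also joined the distant SESN1 region, where SESN1 encodes a stress-responsive sestrin that is itself known as a FOXO target. A loop of 545 kb, ending on the anchor with the ends of SESN1 and CEP57L1, was called in both LW libraries at 4.25 and 7.53. In both MS libraries the loop ended 1 bin short, at 540 kb, with strengths of 6.51 and 11.9, so the contact differed between the breeds by no more than 1 bin.

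PIK3R1 (chr16:46434757-46523626) is transcribed toward higher coordinates, but unlike FOXO1 and FOXO3 it looped mainly to the upstream side of its gene. Upstream anchors held 72.4% to 84.8% of the summed strength per library, the gene body 15.2% to 27.6% and downstream anchors 0% to 2.11%. Loops of 35, 20, 410 and 800 kb were called in all 4 libraries. The 35-kb loop had strengths of 22.7 and 49.1 in LW against 18.0 and 21.1 in MS, and the 20-kb loop 20.8 and 22.5 in LW against 9.07 and 9.34 in MS. Both LW values were above both MS values in these pairs, which were not tested one by one. Strengths of single loops are not normalized between libraries, and no share of all loops stands beside them. Without normalization loop scores leaned to LW, with 862 genes called higher in LW and 259 in MS. The 800-kb loop was called at 8.49 and 5.88 in LW against 10.3 and 4.11 in MS, with overlapping values. No far anchor of the 55 PIK3R1 loops held the end of another protein-coding gene.

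**Figure D2:**
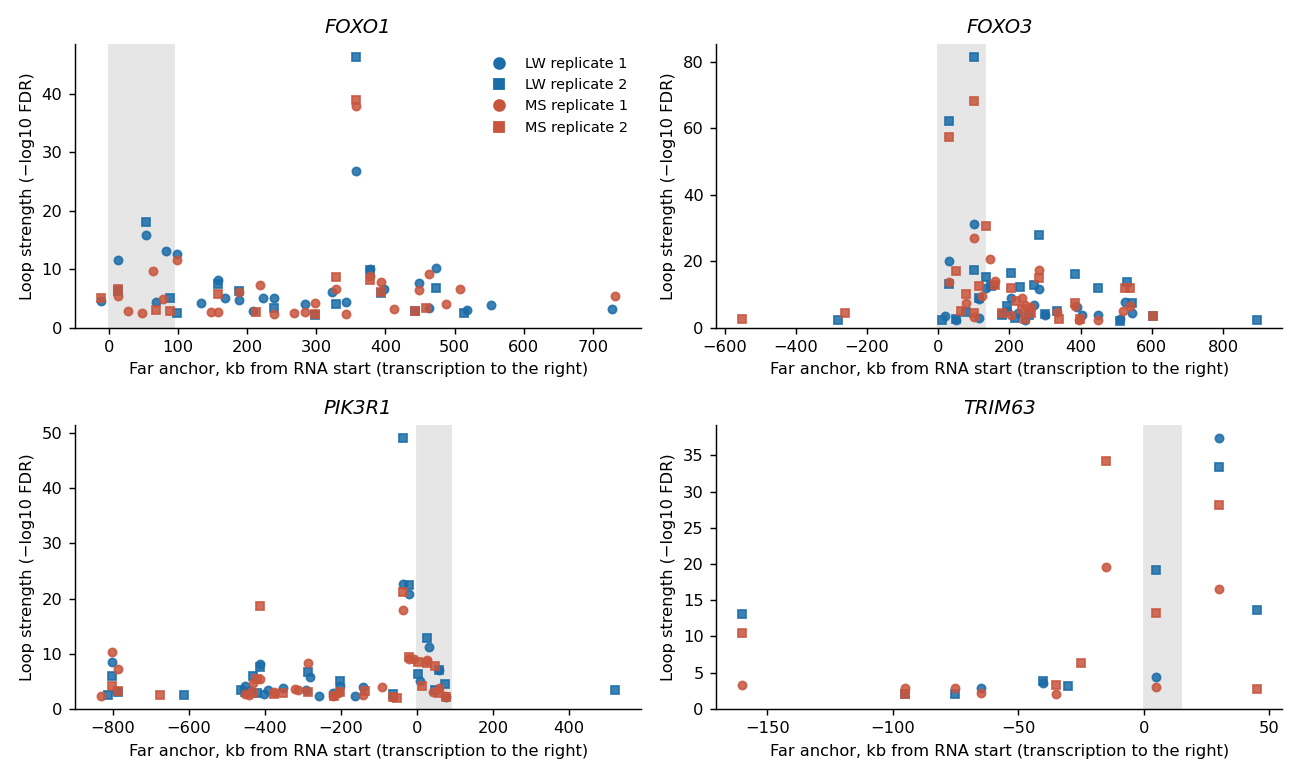
Strength (−log10 FDR) of each loop of FOXO1, FOXO3, PIK3R1 and TRIM63 against the distance of its far anchor from the start of the gene's RNA in kb, with transcription to the right, the RNA in grey, LW in blue and MS in red. FOXO1 and FOXO3 loops lie on and downstream of the RNA, while PIK3R1 loops lie mostly upstream, out to 830 kb.

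The ubiquitin ligase genes had shorter loops. TRIM63 (chr6:83493200-83507471) is transcribed toward lower coordinates, and all 12 of its loops had their near anchor at the gene start, with a median span of 37.5 kb. The strongest by mean over libraries joined the start to an anchor 30 kb away with the ends of EXTL1, a glycosyltransferase gene, and SLC30A2, a zinc transporter gene. It was called in every library, at 37.4 and 33.4 in LW against 16.6 and 28.2 in MS. Both LW values were above both MS values, without normalization and without a test. A 15-kb loop on the upstream side was called in both MS libraries, at 19.65 and 34.2, and in neither LW library, and was stronger than the 30-kb loop in both MS libraries. No LW loop matched it, also when anchors up to 1 bin away were accepted. Upstream anchors held 13.3% and 26.7% of the TRIM63 loop strength in LW and 62.6% and 56.1% in MS, which did not overlap. This share was looked up after the loops had been seen, and no test was made of it. Weaker loops called in 2 libraries ended at PDIK1L and FAM110D.

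FBXO32 (chr4:15895875-15925929) had 21 loops over the 4 libraries and none that was called in all of them. A 30-kb loop was the strongest called in 3 libraries, at 19.9 and 46.5 in LW and 41.2 in MS replicate 2. A 105-kb loop joined FBXO32 to KLHL38 in LW replicate 2 (18.3) and MS replicate 2 (33.9). LW replicate 1 and MS replicate 1 each had a loop to KLHL38 from another pair of bins, of 130 kb at 5.11 and of 95 kb at 10.0. Each library thus held 1 loop between FBXO32 and KLHL38.

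MAP3K5 (chr1:27380143-27600500) looped only within itself, since all 14 loops started at the end of lower coordinate and had their far anchor inside the gene. Its 190-kb loop was found in every library, at 29.4 and 55.2 in LW against 17.9 and 10.3 in MS, and the loop of 50 kb at 11.01 and 14.3 in LW against 6.80 and 9.37 in MS. In both loops the LW values were above the MS values, again without normalization and without a test. A 140-kb loop was called at 25.6 and 34.5 in LW and at 19.7 in MS replicate 2, and MS replicate 1 had a loop of 135 kb, ending 1 bin short of it, at 17.7. FOXO4 (chrX:57132549-57140377) had 7 short loops of 5 to 75 kb. A loop of 20 kb to the anchor with the ends of IL2RG, the common cytokine receptor chain, and MED12, a Mediator subunit, was called in every library at 6.05 and 10.1 in LW against 7.61 and 8.39 in MS.

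Between the breeds, 8 loops of the 7 genes were called in both LW libraries and no MS library, and 10 in both MS libraries and no LW library. Of these 18 loops 10 had a counterpart in the other breed with each anchor at most 1 bin away. The shares over all loops of the lists are not given, for these counts or for the matches below. Neither is therefore read as particular to the 7 genes. Of the 8 without one, 4 belonged to FOXO3 and were called in LW, and the strongest was the 15-kb TRIM63 loop of MS. With anchors up to 1 bin apart accepted, 100% of the TRIM63 loops of LW had a counterpart in MS and 90% the other way, 81.8% and 85.3% of FOXO1 loops, 75% and 87.1% of FOXO3 loops, 78.4% and 81.1% of PIK3R1 loops, 66.7% and 66.7% of FBXO32 loops, 75% and 80% of FOXO4 loops, and 45.5% and 71.4% of MAP3K5 loops.

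The genes on other chromosomes whose normalized log2 loop scores over the 4 libraries lay closest to those of each gene were MEOX2 for FBXO32 (Euclidean distance 0.372), STAG1 for TRIM63 (0.195), ABHD16A for FOXO1 (0.488), JUND for FOXO3 (0.381), RNF214 for FOXO4 (0.242), GPRC5B for PIK3R1 (0.282) and CDON for MAP3K5 (0.24).

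As caRNAs, FOXO1, FOXO3, PIK3R1 and TRIM63 were listed in all 4 GRID-seq libraries, FOXO3 under the identifier ENSSSCG00000004387. FBXO32, FOXO4 and MAP3K5 RNA was in no list. The reads of the 308 RNAs listed in all libraries were compared between the breeds with edgeR (quasi-likelihood test, TMM normalization). All 4 genes were called at an adjusted p under 0.05, but so were 86.7% of the 308 RNAs, so being called does not set these genes apart. Calls higher in LW made up 44.2% of the RNAs and calls higher in MS 42.5%. The libraries of the breeds did not overlap for any of the 4, which held for 93.8% of the 308 RNAs.

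FOXO1 RNA had 14169 and 15912 reads in LW against 18019 and 20953 in MS. Scaled to 1000000 reads of the 308 RNAs with TMM factors (normalized CPM) these were 2061 and 2093 against 3053 and 2987, 1.45-fold higher in MS (log2 difference −0.54 ± 0.02 SE, n = 2 per breed, edgeR adjusted p = 1.46e-05). FOXO3 RNA went the other way, with 16276 and 17658 reads in LW against 12055 and 14192 in MS. Its normalized values of 2367 and 2322 against 2043 and 2023 were 1.15-fold higher in LW (log2 difference 0.21 ± 0.01, edgeR adjusted p = 0.000256). FOXO1 and FOXO3, 2 factors of the same family, thus differed in opposite directions in reads, FOXO3 by the smaller amount. By summed signal, the value listed per RNA and DNA bin, both were higher in LW. FOXO1 RNA gave 89580.9 and 96508.9 in LW against 67669.6 and 74351.7 in MS. FOXO3 RNA gave 74500.0 and 79985.6 in LW against 62176.2 and 70007.4 in MS. These sums were not normalized between libraries, unlike the reads, and were not tested. How many of all listed RNAs do not overlap between the breeds in summed signal is not given.

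PIK3R1 RNA had 10226 and 11262 reads in LW against 14024 and 16471 in MS. It was the most different of the 4, at 1487 and 1481 normalized CPM against 2376 and 2348, 1.59-fold higher in MS (log2 difference −0.67 ± 0.01, edgeR adjusted p = 4.15e-06). TRIM63 RNA had 2156 and 2525 reads in LW against 2931 and 3427 in MS. Its normalized values of 313.6 and 332.1 against 496.7 and 488.5 were 1.53-fold higher in MS (log2 difference −0.61 ± 0.04, edgeR adjusted p = 0.000108). The median absolute log2 difference of all 308 RNAs was 0.35, so FOXO1, PIK3R1 and TRIM63 were above the median and FOXO3 was below it. Without TMM the median of all RNAs moved by 0.126 toward LW, the calls went from 136 higher in LW and 131 in MS to 161 and 99, and the 4 genes kept their directions.

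**Figure D3:**
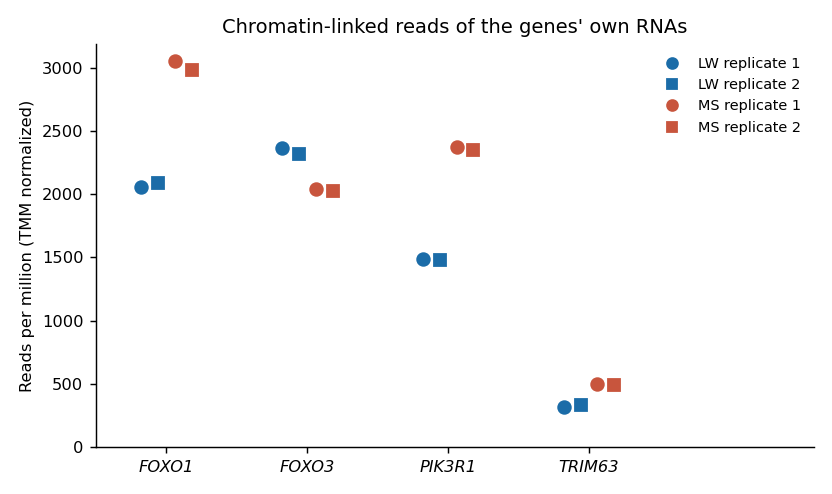
TMM-normalized CPM of the caRNAs of FOXO1, FOXO3, PIK3R1 and TRIM63, 1 point per GRID-seq library (linear axis from 0, LW in blue, MS in red). FOXO1, PIK3R1 and TRIM63 are higher in both MS libraries and FOXO3 in both LW libraries.

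On chromatin, these RNAs stayed close to their own genes to different degrees. TRIM63 RNA reached 109 to 173 bins of 1 kb per library, with 65.0% to 79.1% of its signal within 10 kb of the gene and its farthest bin 117 kb away. FOXO3 RNA had 65.3% and 55.4% of its signal within 10 kb in LW and 77.1% and 69.4% in MS, so both MS libraries were above both LW libraries. It reached 756 and 985 bins in LW against 496 and 719 in MS, with overlapping numbers. FOXO1 RNA had 46.0% and 43.8% within 10 kb in LW and 51.0% and 44.8% in MS. PIK3R1 RNA was the most spread, with 36.5% and 33.7% within 10 kb in LW and 31.9% and 29.5% in MS, over 1264 to 1797 bins. Here both LW libraries were above both MS libraries. How many of all listed RNAs do not overlap between the breeds in this share is not given. Within each breed replicate 2 had more reads of each RNA and a lower share within 10 kb, or for TRIM63 in MS the same share. FOXO3 RNA had fewer reads in MS than in LW and PIK3R1 RNA more, and the part of read number was not tested. Bins beyond 100 kb numbered 978 to 1508 per library for PIK3R1 and 464 to 923 for FOXO1.

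Beyond 10 kb, the RNAs of FOXO1, FOXO3 and PIK3R1 lay mainly on the side of the gene toward which its loops ran, and TRIM63 RNA did not in LW. For FOXO1 88.8% to 91.9% of the distant signal per library was on the lower-coordinate side, downstream of the gene, and 94.0% to 100% of the loop strength beyond 10 kb was on the same side. For FOXO3 83.4% to 96.0% of the distant signal and 93.6% to 100% of the loop strength was on the higher-coordinate side, again downstream. For PIK3R1 68.9% to 75.3% of the distant signal and 97.3% to 100% of the loop strength was on the lower-coordinate side, here upstream of the gene. TRIM63 had 54.3% to 71.2% of its distant signal on the higher-coordinate side in the 4 libraries. That side held 14.6% and 33.9% of its loop strength in LW against 66.4% and 64.6% in MS, so the loops lay mainly on the other side in LW and on the same side in MS. The RNA signal and the loops compared here came from separate libraries of the same breeds, of GRID-seq and of BL-HiChIP.

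**Figure D4:**
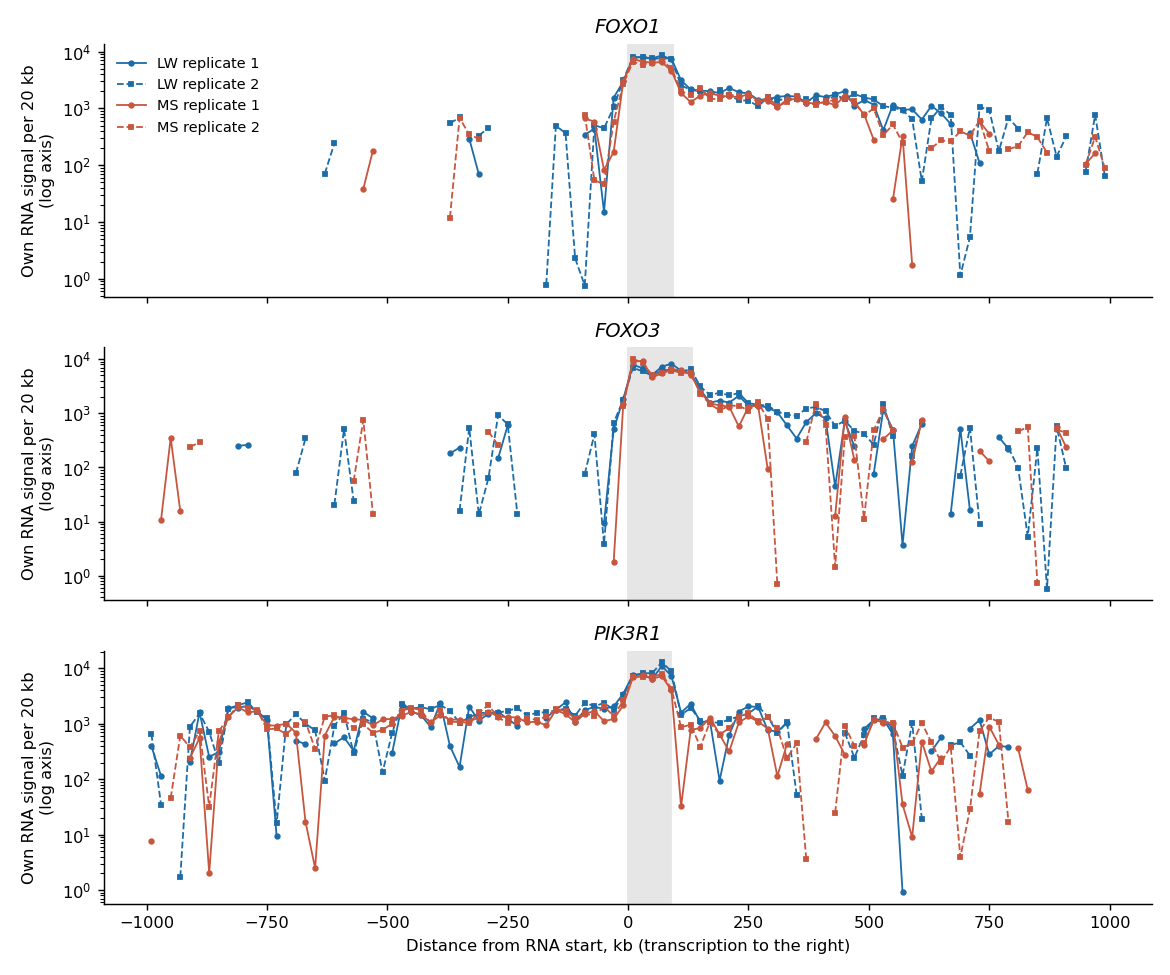
Signal of the FOXO1, FOXO3 and PIK3R1 RNA summed in 20-kb steps against the distance from the start of the RNA in kb (transcription to the right, RNA in grey, log axis, steps without signal not drawn), with 1 line per library. FOXO1 and FOXO3 signal extends downstream of the gene, and PIK3R1 signal extends upstream over most steps out to about 900 kb in all 4 libraries.

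The far anchors of the loops beyond 10 kb were set beside the other 5-kb windows between the outermost anchors. For FOXO3 92% and 100% of the anchors beyond 10 kb held FOXO3 RNA in LW, against 48% and 62% of the other windows, and 60% and 80% against 21.7% and 32.8% in MS. The mean signal per anchor was 321.8 and 393.3 in LW against 86.3 and 124.1 per window, and 163 and 252.5 against 47.3 and 65.5 in MS. The anchors lay closer to the gene, at a median of 167 kb against 282 kb for the windows in LW and 230 kb against 274 kb in MS. The windows also covered the lower-coordinate side out to the farthest anchor there. That side held 0 to 2 FOXO3 loops per library beyond 10 kb and 4.01% to 16.6% of the distant FOXO3 signal. The parts of distance and side in these contrasts were not tested. For FOXO1 every anchor held FOXO1 RNA in all 4 libraries, as did 65.6% to 95.8% of the windows, and the mean signal per anchor was 356.6 to 400.1 against 189.1 to 313.5 per window. The FOXO1 anchors also lay closer to the gene, at a median of 257 kb against 370 kb in LW and 387 kb in MS. For PIK3R1 92.3% to 100% of anchors and 71.7% to 100% of windows held PIK3R1 RNA, with no difference in MS replicate 2, and with mean signals of 335.1 to 491.8 per anchor and 239.4 to 313.1 per window. The PIK3R1 anchors lay farther from the gene than the windows in LW, at a median of 397 kb against 314 kb, and closer in MS, at 312 kb against 470 kb. In LW the PIK3R1 windows also ran downstream of the gene, to the anchor of a 525-kb loop called in LW replicate 2 only. For TRIM63 50% and 62.5% of the anchors held TRIM63 RNA in LW against 26.9% and 61.5% of the windows, and 77.8% and 55.6% against 52% and 32% in MS, with the anchors closer to the gene in both breeds.

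All RNA signal within 5 kb of the gene ends was then compared between the breeds with limma, and a gene was called at a log2 difference over 2 with an unadjusted p under 0.05. FBXO32 and FOXO1 were called, 2 of the 6 genes tested, where 15.7% of the 23749 genes tested were. FBXO32 was called higher in MS, as were 8.22% of all genes, and FOXO1 higher in LW, as were 7.46%. After adjustment limma called 0 genes, against 3723 genes with an unadjusted p under 0.05. No RNA was listed on the FOXO4 bins in any library, and FOXO4 was not tested. The libraries of the breeds did not overlap for 4 of the 6 genes, against 36.8% of all genes tested.

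FBXO32 had a signal of 10.2 and 14.7 in LW against 321.2 and 634.7 in MS. This was a log2 difference of −5.31 ± 0.87 (limma adjusted p = 0.161, called at the unadjusted threshold). Most of the MS signal, 279.7 and 595.9, was RNA of ZHX2, a zinc finger and homeobox transcription factor gene 449 kb away on the same chromosome. ZHX2 RNA was listed in the MS libraries only, with 14214 and 16711 reads. With the RNAs listed in all 4 libraries alone, an alternative chosen after seeing the data, the FBXO32 difference was −1.56 (limma adjusted p = 0.541) and was no longer called. NEB RNA on FBXO32 gave 1.14 in LW replicate 1 and 16.4 in MS replicate 2.

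FOXO1 had a signal of 42933.4 and 43387.2 in LW against 6073 and 5648 in MS, a log2 difference of 2.89 ± 0.88 (limma adjusted p = 0.265, called at the unadjusted threshold). FOXO1 RNA itself gave 6905 and 7068 in LW against 6031 and 5625 in MS. The rest of the LW signal, 36024.8 and 36316.1, came from an unnamed transcript that begins 1.16 and 1.10 kb past the 3′ end of FOXO1 on the same strand and was listed in the LW libraries only, with 465 and 511 reads. The 2 lists give it different names and slightly different bounds. Without the unnamed transcripts, an alternative chosen after seeing the data, the FOXO1 difference was 0.51 (limma adjusted p = 0.802) and was not called. Its small number of reads carried a larger signal than the reads of FOXO1 RNA, so signal is not proportional to reads across RNAs. The call was also lost, at nearly the same difference, with a pseudocount of 0.1 (2.90) and without LW replicate 1 (2.79, limma adjusted p = 0.249) or LW replicate 2 (2.94, limma adjusted p = 0.224). Without RNAs that overlap the gene the difference was 9.62 (limma adjusted p = 0.162) and was called.

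PIK3R1 had a signal of 7724 and 8523 in LW against 5084 and 5493 in MS, nearly all of it PIK3R1 RNA. Both LW libraries were above both MS libraries, opposite to the order of the PIK3R1 reads, and the log2 difference of 0.69 ± 0.87 was not called (limma adjusted p = 0.721). Without RNAs that overlap the gene the difference was −3.78 (limma adjusted p = 0.218), past the unadjusted threshold. That value rests on signals of 0 in both LW libraries and 10.4 and 19.2 in MS, in which TTN RNA gave 10.4 and 10.6. FOXO3 had 5876 and 5864 in LW against 5602 and 6182 in MS (log2 difference 0.11 ± 0.89, limma adjusted p = 0.969), with the breeds overlapping. SESN1 RNA, from 272.8 kb away, gave 673.5 and 735.9 of the FOXO3 signal in LW. It was listed in LW only, with 25607 and 28468 reads. EYA4 RNA, from 44051.1 kb away on the same chromosome, gave 39.8 in LW replicate 1 and 88.6 in MS replicate 2.

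TRIM63 had a signal of 40969.3 and 34863.2 in LW against 42423.3 and 40321.2 in MS, of which 99.6% to 100% was TRIM63 RNA (log2 difference −0.22 ± 0.84, limma adjusted p = 0.923). TTN RNA gave 0.654 and 12.5 in LW and 17.2 in MS replicate 2. MAP3K5 had 142.6 and 137.6 in LW against 196.5 and 183.2 in MS (log2 difference −1.23 ± 1.17, limma adjusted p = 0.655). Different RNAs made up these values. EYA4 RNA gave 142.6 and 74.4 in LW, and PDE7B RNA, from 357.8 kb away, gave 178.5 and 162 in MS. PDE7B was listed in MS only, with 37231 and 43755 reads, while EYA4 was listed in all 4 libraries. With the RNAs listed in all 4 libraries alone the MAP3K5 difference turned to 2.29 (limma adjusted p = 0.423).

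**Figure D5:**
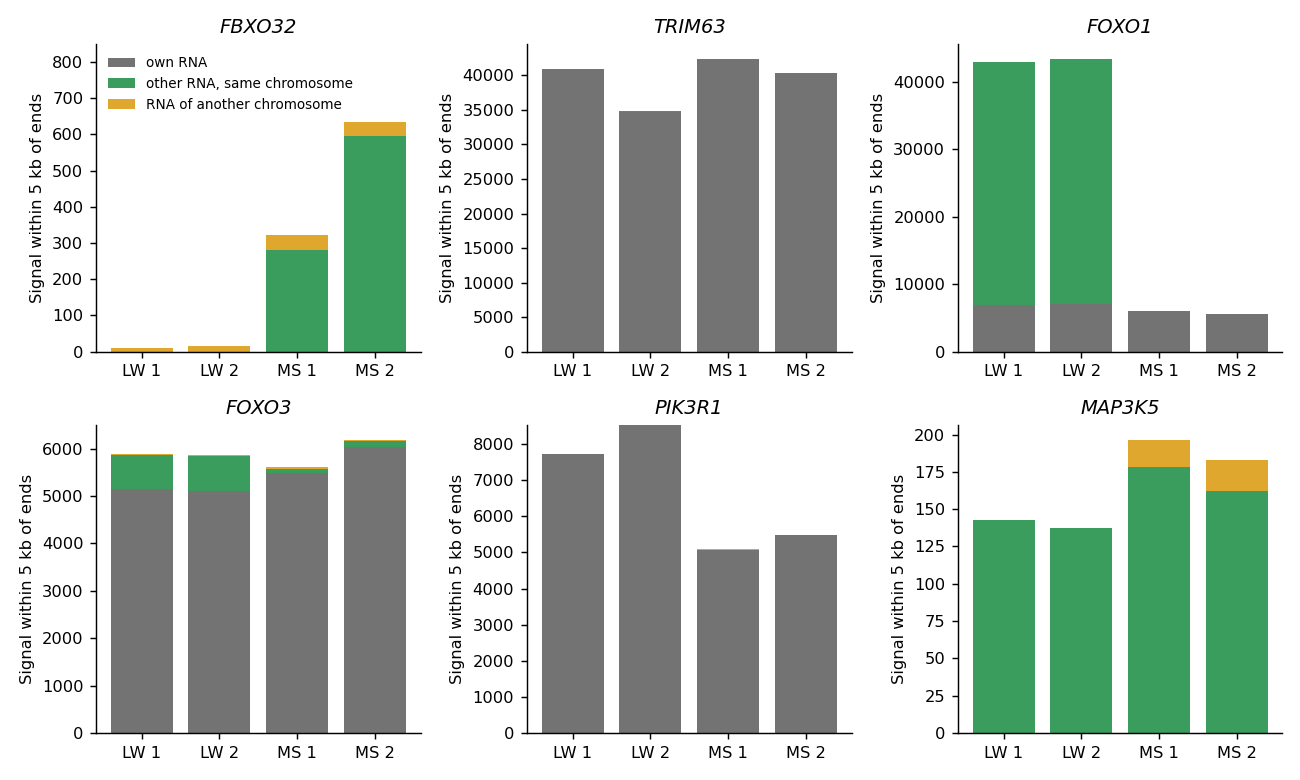
RNA-chromatin signal within 5 kb of the gene ends in each GRID-seq library (linear axes from 0, scale set per gene), split into the gene's own RNA (grey), other RNAs of the same chromosome (green) and RNAs of other chromosomes (yellow). Other RNAs of the same chromosome make up most of the FBXO32 signal in MS and of the FOXO1 signal in LW.

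RNAs from other chromosomes reached these genes weakly and irregularly. TTN RNA appeared at 6 of the 7 genes, in 10 gene and library pairs, with a summed signal of 79.6. ENSSSCG00000048856 RNA appeared at 5 genes in 7 pairs. In no library did all such RNAs together give more than 44.7 at any of the genes.

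Around the 7 genes, 100 other genes of the pathway were followed in 6 lists. In loop score 88 were tested, of which 1 was called higher in LW and 3 in MS, 4.55% in all, where 2.83% of all genes were called higher in LW and 2.5% in MS, and their median log2 difference was 0.06 against 0.02 for all genes. PDPK1, the kinase that activates AKT, had scores of 9.37 and 5.32 in LW and no loop in either MS library. INPP5K, an inositol phosphatase that opposes PI3-kinase signalling, had 19.2 and 2.81 in LW against 61.8 and 47.7 in MS (log2 difference −2.89). STK4, a kinase that phosphorylates FOXO factors, had 0 and 2.11 in LW against 5.83 and 5.48 in MS. The limma adjusted p of these 3 genes was 0.804 to 0.927.

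In RNA-chromatin signal 96 of the 100 genes were tested, and 4 were called higher in LW and 14 in MS, 18.8% in all against 15.7% of all genes, of which 7.46% were called higher in LW and 8.22% in MS. The median log2 difference was −0.56 against −0.07. Several of the MS calls were at genes whose own RNA was listed only in MS. AKT2 had signals of 11.3 and 20.8 in LW against 13887.4 and 13172.4 in MS, TRIM54 (MuRF3) 11.2 and 0 against 42976.4 and 47409.4, the mitophagy receptor gene BNIP3 70.8 and 107.2 against 80873.4 and 70519.8, and the cell cycle inhibitor gene CDKN1A 0.59 and 0 against 35357.4 and 31637.6. Their RNAs had 2451 and 3019, 2076 and 2485, 798 and 1022, and 519 and 644 reads in MS, and were missing from both LW lists. The limma adjusted p of these 4 genes was 0.109 to 0.131.

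Among the insulin and PI3K-AKT genes 2 of 14 were called in signal, AKT2 and PIK3R2 (0 and 0 in LW, 13.6 and 19.6 in MS), both higher in MS. Of 16 regulators of FOXO proteins 3 were called, all higher in MS, where 8.22% of all genes were called higher in MS and 15.7% either way. They were the deubiquitinase gene USP7 (23.3 and 31.6 in MS), YWHAZ, which encodes a 14-3-3 protein that binds phosphorylated FOXO (44.1 and 39.5 in MS), both without signal in LW, and the arginine methyltransferase gene PRMT1 (23.1 and 29.9 in LW, 104 and 246.6 in MS). The calls of PIK3R2, USP7 and YWHAZ rest on small MS signals and none in LW, beside MS signals of 13887.4 and 13172.4 for AKT2. Which RNAs gave these small signals is not given. Of 19 ubiquitin pathway genes 2 were called higher in LW and 1 in MS. USP19 had 535.4 and 791.4 in LW against 5.62 and 1.14 in MS, and UBE2D2 had 1847 and 3060 against 57.9 and 572.4.

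Of 15 autophagy genes 2 were called higher in LW and 3 in MS. The lysosomal protease gene CTSL had 10807.2 and 8506 in LW against 0 and 8.95 in MS, and ATG4B had 19.4 and 78.5 in LW and none in MS. Besides BNIP3, the MS calls were GABARAPL1 (51.4 and 25.5 in MS, none in LW) and ULK2 (0 and 3.14 in LW, 23.9 and 21.6 in MS). Of 18 FOXO target genes 4 were called, all higher in MS, beside 8.22% of all genes called higher in MS and 15.7% either way. They were CDKN1A, SOD2 (19.3 and 28.6 in MS) and CCNG2 (38.0 and 18.9 in MS), these last without signal in LW, and KLF15 (24.9 and 19.9 in LW, 757.5 and 40438.8 in MS). KLF15 RNA was listed in MS replicate 2 only, which gave most of the KLF15 signal. Of 14 genes of the MAP3K5 pathway 1 was called, MAP2K4 (19.5 and 13.6 in MS, none in LW). The signals of ATG4B, GABARAPL1, ULK2, SOD2, CCNG2 and MAP2K4 were likewise small, with little or none in the other breed.

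In caRNA reads 5 of the 100 genes were tested and all were called, against 86.7% of all RNAs. TXNIP, which encodes a thioredoxin-binding protein, was higher in MS, at 690.5 and 669 normalized CPM in LW against 995.2 and 1018 in MS (edgeR adjusted p = 6.77e-05). PDK4, the pyruvate dehydrogenase kinase gene and a FOXO1 target, was at 2365 and 2413 in LW against 2569 and 2570 in MS (edgeR adjusted p = 0.00204). ZFAND5 was higher in LW, at 609.7 and 612.3 against 538.4 and 543.7 (edgeR adjusted p = 0.00159). JUN, the transcription factor downstream of JNK, was at 92.3 and 103.9 in LW against 223.5 and 224.4 in MS (log2 difference −1.19 ± 0.06, edgeR adjusted p = 6.77e-05). BCL6 was also higher in LW, at 372.6 and 350.2 against 309.8 and 326.3, so that 2 of the 4 FOXO target RNAs tested were higher in LW and 2 in MS.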

How the data were processed

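For BL-HiChIP the authors trimmed the linker, mapped to Sscrofa11.1 with BWA-MEM and called loops per library with FitHiChIP at 5-kb resolution from H3K27ac peaks. The deposited value per loop was read as an adjusted p-value (FDR), since the lists end at 0.01. For GRID-seq the authors mapped with Bowtie2 2.2.5 (version per the labels) and corrected for background. Columns are unnamed. The deposited whole number per RNA was read as a read count, and the deposited value per RNA and 1-kb bin as signal.

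Gene ends came from RefSeq positions, which give no strand; strand was taken from the GRID-seq lists. Scores were compared with limma 3.58.1 (log2(value + 1), which understates changes of low genes) and counts with edgeR 4.0.16 in R 4.3.3, adjusted over all features and tested on simulated data. A loop FDR of 0 was set to a −log10 of 324. Repeated RNA and bin pairs (1125 to 2036 per list) were summed. Valid-pair totals and sequences were not used here. Members, lists, tests and alternatives were chosen with earlier results of these data known. Genes were named by rule: all members; genes on far anchors of loops in at least 2 libraries (up to 5 per member); RNAs on a member in at least 2 libraries (up to 4); the closest loop pattern; and called pathway genes (up to 3 per list). Other genes named were chosen after their values were seen. Results for 2 of the features named by rule are not reported here.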

Additional observations from a re-analysis of the deposited data

How the results depend on the processing

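Of 193 values of the 7 genes under alternative settings, 171 kept their direction and their side of the threshold, 8 lost their call and 14 changed sign. The 14 were values not called in the report. In loop score FOXO3 was 0.12 without normalization, and leaving out 1 library moved FOXO1 from −0.55 to 0.79, FOXO3 from −0.30 to 0.15 and PIK3R1 from −0.18 to 0.37, with the other sign without LW replicate 1 (−0.48, 0.15 and −0.08) and without MS replicate 2 (−0.55, 0.02 and −0.18), and TRIM63 was 0.26 with 5-kb windows. In signal FOXO3 was −0.0036 without normalization, −0.17 to 0.40 leaving out 1 library (−0.15 without MS replicate 2) and −0.21 with the RNAs listed in all 4 libraries, where MAP3K5 was 2.29. PIK3R1 was −3.78 without RNAs that overlap the gene. FOXO3 reads lost their call (edgeR adjusted p = 0.092) when RNAs listed in at least 1 library entered. The cause was not tested.

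The 822 genes called in loop score became 1388 with a pseudocount of 0.1 (431 higher in LW, 957 in MS), 1289 with the replicate number as a block, 246 with DESeq2 (100 and 146) and 836 to 1594 leaving out 1 library. Without normalization 862 were higher in LW and 259 in MS, against 436 and 386. Signal calls, 3723, ran from 2569 with the block to 5240 without LW replicate 2, and 4415 to 5240 leaving out 1 library. Read calls, 267, ran from 254 to 278, the latter with the block. The block lost the FOXO1 signal call (limma adjusted p = 0.548) and changed no other call of the 7 genes. The replicate numbers are not said to pair the libraries, and deviations of same-numbered libraries correlated across genes at 0.354 for loop score, −0.006 for signal and 0.939 for reads. The 142 loops of LW and 139 of MS became 33 and 36 when both libraries of a breed were required, and 87 to 88 and 84 to 91 without 1 library.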

Other observations

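A few contacts of the RNAs lay far from the rest. FOXO1 RNA was listed on another chromosome in 1 library only, on 23 bins of chromosome 9 in MS replicate 1 with a summed signal of 247.8, of 67669.6 in all. FOXO3 RNA reached a bin 74578 kb below its gene in LW replicate 2 and one 21933 kb below it in MS replicate 2, and FOXO1 RNA reached 63628 kb above its gene in MS replicate 2. TRIM63 RNA had no bin farther than 117 kb in any library.

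Listing in the GRID-seq files differed between the breeds for RNAs of many reads. Both LW lists and neither MS list held 69 RNAs, the one of most reads being TRDN, with 67305 and 73574. Both MS lists and neither LW list held 85, led by PDE7B, with 37231 and 43755. The smallest number of reads listed was 432 to 455. Of the RNAs on the 7 genes, ZHX2 and PDE7B were of the MS kind, and SESN1 and TRDN of the LW kind.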
